A study of Homo sapiens with 9 samples.

Results

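The expression of 9 genes of lipid release and storage was followed in MDA-MB-231 cells treated with the copper chelator TEPA. They were the endothelial lipase gene LIPG, PNPLA2, LIPE, MGLL and ABHD5 of lipid breakdown, PLIN2 and PLIN3 of the droplet coat, and DGAT1 and DGAT2 of triglyceride synthesis. These 9 genes were chosen by name from the 59453 gene names of the deposited count table, and all 9 passed the expression filter that kept 16556 genes. LIPG was selected on its fall at 8 h in these same libraries, so its values are given as a description without a test. The other 8 genes were named for their roles, with earlier results of these data known. Each was tested in a fit across all 16556 genes.

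MDA-MB-231 is an established human line of triple-negative breast cancer (TNBC). RNA-Seq of this line covered 9 libraries, with 3 replicates each of untreated cells, cells given TEPA for 8 h and cells given it for 24 h. TEPA is a polyamine that binds copper, and its concentration is 8 mM in the sample labels and 4 mM in the RNA sequencing methods. All groups were grown in DMEM with 10% fetal bovine serum, and a single untreated group served both times. The labels do not say whether replicates were separate cultures, so p-values measure only the spread between these samples, which may be technical. The 9 libraries held from 34633755 to 49342659 counts. Levels are given as CPM, a gene's share of its library's counts on a common scale, with library sizes adjusted by TMM factors between 0.977 and 1.039.

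Markers of the line and of other cell types were checked first. VIM, CD44, EGFR and AXL, which mark this mesenchymal-like line, summed to between 4990 and 6860 CPM. Of 5 genes that this line should have at a low level or lack, PGR was at 0 in every library and ESR1 at 9 counts or fewer. ERBB2 was read at group means of 52.9 to 81.3 CPM and EPCAM at 1.12 to 1.44 CPM. The epithelial cadherin CDH1 was at 0.624 CPM untreated, 0.351 at 8 h and 3.19 at 24 h (2.33 on the log2 scale at 24 h, adjusted p = 1.1e-06). Among 8 adipocyte markers only PPARG reached 1 CPM in any group, and LEP, CIDEA and LPL were at 0. Endothelial and macrophage markers summed to at most 9.5 and 22.2 CPM. Both sums were lowest at 8 h and highest at 24 h, and their part in the results was not tested. Of the 6 endothelial markers, VWF, CDH5, TEK and CLDN5 had at most 3 counts in a library and KDR at most 32. PECAM1 reached 364 counts, with 3.59 CPM untreated. It fell to 1.06 CPM after 8 h (-1.76, adjusted p = 8.9e-07). It rose to 8.13 CPM after 24 h (1.18, adjusted p = 1.9e-06). Of the 5 macrophage markers, ADGRE1 had at most 2 counts in a library, PTPRC 5 and CD68 15. CSF1R was at 13.5 CPM untreated, 7.44 at 8 h and 17.0 at 24 h, and CD14 at 3.85, 0.762 and 4.05 CPM. Both were called lower at 8 h (-0.85 and -2.32), while CD68 was highest there, at 0.329 CPM, and was not called. Untreated replicate 1 stood apart most. The chi-square per degree of freedom between replicates was 21.2 for untreated replicates 1 and 2, against 2.39 to 8.62 for the other pairs. In RNA of whole cultures, fewer cells of a type and less RNA per cell cannot be told apart.

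Cells keep neutral lipid as triglyceride and sterol ester in lipid droplets, whose surface is covered by proteins of the perilipin family. The DGAT enzymes add the last fatty acid of a triglyceride. Release runs in steps, in which adipose triglyceride lipase (PNPLA2) with its coactivator ABHD5 takes the first fatty acid, hormone-sensitive lipase (LIPE) the next and monoglyceride lipase (MGLL) the last. Endothelial lipase works outside the cell instead, as a secreted phospholipase that acts mainly on high-density lipoproteins. Tumour cells can take fatty acid from lipoproteins or draw it from droplets.

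The sequences upstream of a secreted lipase, a droplet lipase and a droplet coat gene are shown because these 3 genes moved in different ways across the groups. Each is the 250 bases before a RefSeq start on GRCh38.p14, 5′ to 3′ on the gene's strand. The windows are chr18:49561807-49562056 on the plus strand for LIPG, chr11:818664-818913 on the plus strand for PNPLA2, and chr9:19127493-19127742 on the minus strand for PLIN2. The LIPG and PLIN2 windows lie within the GENCODE spans of these genes, which begin upstream of the RefSeq starts used. Capitals mark matches to the motifs searched, on either strand.
LIPG: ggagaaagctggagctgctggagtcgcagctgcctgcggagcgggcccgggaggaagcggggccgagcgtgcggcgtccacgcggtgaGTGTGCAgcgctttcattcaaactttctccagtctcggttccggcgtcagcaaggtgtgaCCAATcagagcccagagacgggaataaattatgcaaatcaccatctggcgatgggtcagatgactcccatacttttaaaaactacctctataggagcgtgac
PNPLA2: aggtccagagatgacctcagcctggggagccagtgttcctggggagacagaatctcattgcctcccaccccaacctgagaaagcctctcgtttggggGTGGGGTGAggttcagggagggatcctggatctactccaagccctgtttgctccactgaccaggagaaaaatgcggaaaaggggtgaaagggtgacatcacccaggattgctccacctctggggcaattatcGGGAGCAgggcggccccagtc
PLIN2: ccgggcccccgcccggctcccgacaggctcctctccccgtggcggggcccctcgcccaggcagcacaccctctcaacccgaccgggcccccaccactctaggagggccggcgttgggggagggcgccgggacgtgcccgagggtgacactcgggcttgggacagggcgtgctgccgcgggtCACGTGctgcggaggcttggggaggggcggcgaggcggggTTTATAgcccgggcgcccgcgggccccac

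In the LIPG window the first capitals, 162 bases before the start, match TGCNCNC, a loose pattern for the metal response element. The others are a CCAAT box (CCAAT) 102 bases before the start. The PNPLA2 window held a match to the sterol regulatory element (TCACNCCAC) at 153 bases and 1 to the loose metal pattern at 21 bases. The latter reads TGCTCCC on the other strand, so it matches the loose letters only. In PLIN2 an E-box (CACGTG) stood 69 bases and a TATA box (TATAAA) 29 bases before the start. An AP-1 site (TGANTCA) was also searched and was in none of these 3 windows. Over 35116 RefSeq windows of this length, 49.1% held the metal response letters, 32.0% CCAAT, 0.883% the sterol element, 6.34% the E-box, 10.7% the TATA box and 6.57% the AP-1 letters. The metal and sterol patterns do not overlap each other in these windows. These matches are letters in a window and not tested sites. Promoter entries were matched for 6 of the 9 genes.

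LIPG fell furthest of the 9 genes, and its level came part of the way back by 24 h. LIPG (ENSG00000101670) lies on the plus strand of chromosome 18 from 49560699 to 49599185 in hg38. Its counts were 3842, 2229 and 2527 in untreated replicates 1 to 3, 448, 439 and 455 at 8 h, and 1150, 1255 and 954 at 24 h. As CPM these were 102, 48.8 and 64.0 untreated, 11.2, 11.5 and 12.4 at 8 h, and 22.5, 29.1 and 26.5 at 24 h. No library of any group overlapped those of another group. The 8 h libraries lay close together, whereas the highest untreated library was 2.1 times the lowest.

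The mean LIPG level at 8 h was 16.3% of the untreated mean, and 36.3% at 24 h. The fitted log2 fold change was -2.61 at 8 h, which is 6.13-fold lower, and -1.46 at 24 h. At 24 h the level was 2.23-fold that at 8 h. Among the 16556 genes tested, LIPG was number 20 from the lowest log2 fold change at 8 h and number 168 at 24 h, which follows from how it was picked. The size rested in part on untreated replicate 1. Without that library the log2 fold change was -2.27 at 8 h and -1.12 at 24 h, and the mean of the remaining untreated libraries was 56.4 CPM.

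**Figure D1:**
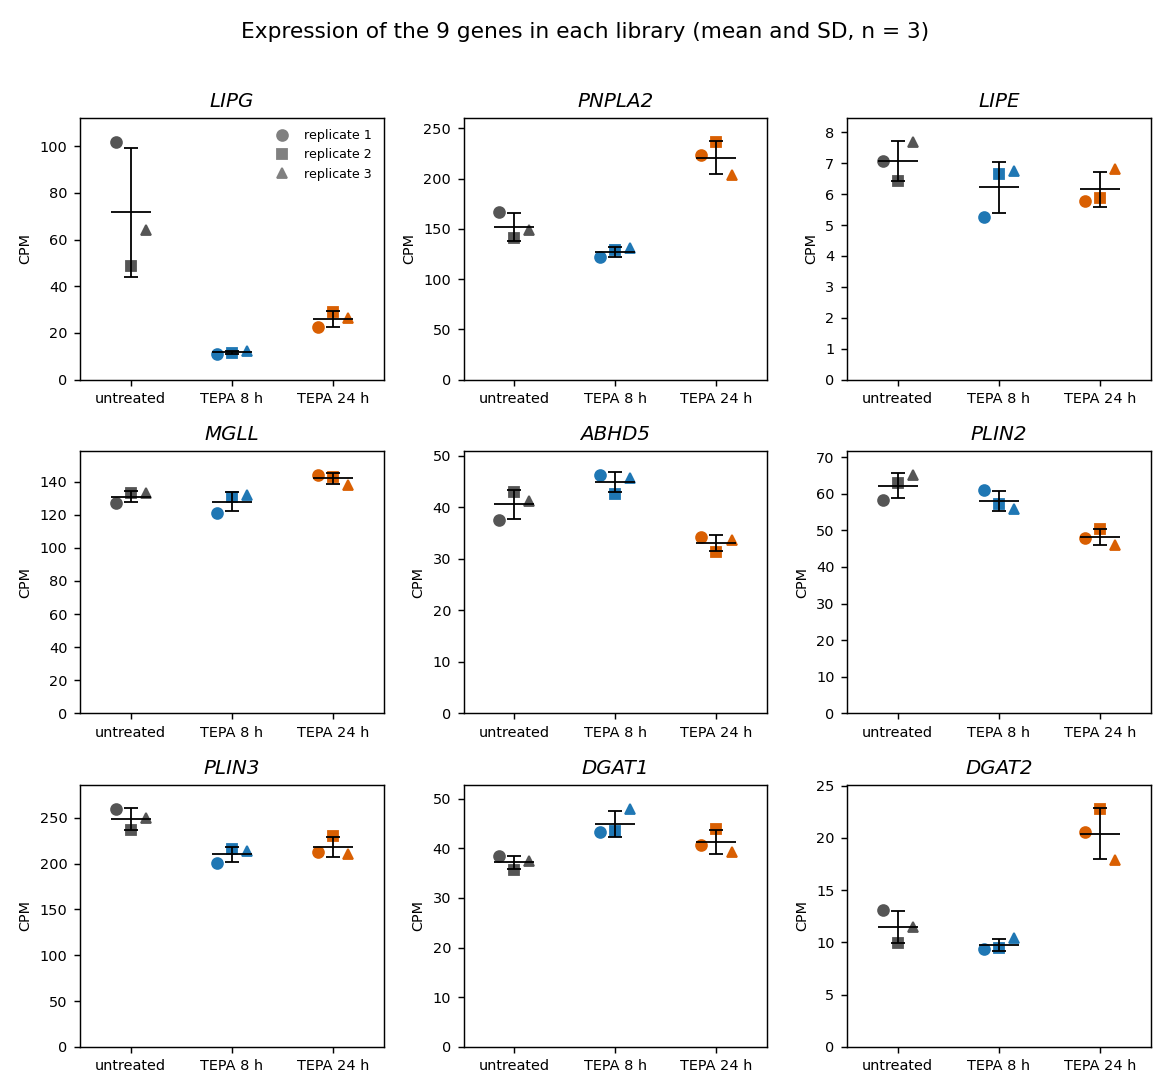
Each panel plots 1 gene, with CPM on a vertical axis that starts at 0 and the 3 groups across. Points are single libraries with a shape for each replicate, and the black dash and bar are the mean and SD of 3 libraries. LIPG fell from between 48.8 and 102 CPM to between 11.2 and 12.4 at 8 h, whereas PNPLA2 and DGAT2 stood highest at 24 h, and PLIN2 and ABHD5 lowest there.

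The first lipase of the droplet moved in opposite directions at the 2 times. PNPLA2, on the plus strand of chromosome 11 from 818914 to 825573, held 167, 141 and 149 CPM in untreated libraries. Its level was 122, 129 and 131 CPM at 8 h and 224, 237 and 204 CPM at 24 h. None of the 3 groups overlapped. PNPLA2 fell at 8 h by 0.26 on the log2 scale (95% interval -0.39 to -0.13, adjusted p = 0.0026 by edgeR's quasi-likelihood test). It rose at 24 h by 0.54 (0.41 to 0.67, adjusted p = 2.3e-06), which is 1.45-fold. The direct comparison of 24 h with 8 h gave 0.80 (0.67 to 0.93, adjusted p = 3.5e-08).

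ABHD5, which activates PNPLA2 at the droplet surface, showed the opposite order of groups. This gene lies on chromosome 3 from 43690108 to 43734371, and its CPM were 37.5, 42.9 and 41.1 in untreated libraries. They were 46.2, 42.6 and 45.7 at 8 h, overlapping the untreated range, and 34.2, 31.2 and 33.7 at 24 h, below every other library. ABHD5 fell at 24 h by 0.30 on the log2 scale (-0.42 to -0.17, adjusted p = 0.00047), and 24 h against 8 h gave -0.44 (adjusted p = 9.3e-06). At 8 h it was 0.15 higher (0.02 to 0.27, adjusted p = 0.045). That last call was lost by DESeq2 (adjusted p = 0.058) and with no filter on low counts (0.062). It was also lost without untreated replicate 1 (0.19) or 3 (0.09), without TEPA 8 h replicate 1 (0.16) or 3 (0.15), and without TEPA 24 h replicate 1 (0.06) or 3 (0.051).

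Since the lipase and its coactivator moved apart, their ratio per kb of exon shifted between groups. PNPLA2 over ABHD5 was 8.79, 6.45 and 7.15 in untreated replicates 1 to 3. At 8 h it was 5.18, 5.97 and 5.65, and at 24 h 12.9, 14.9 and 11.9. The groups did not overlap in this ratio, which is a level per length in RNA and not a ratio of proteins. It is built from the values given above and was not tested.

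Of the 2 members for the later steps of droplet breakdown, LIPE was not called and MGLL changed little. LIPE, on chromosome 19 from 42401514 to 42427388, held 7.06, 6.43 and 7.70 CPM untreated, 5.27, 6.64 and 6.74 at 8 h, and 5.78, 5.88 and 6.81 at 24 h. All groups overlapped, and its log2 difference from untreated was -0.18 (-0.42 to 0.05, adjusted p = 0.18) at 8 h and -0.20 (-0.44 to 0.03, adjusted p = 0.14) at 24 h. With 211 to 304 counts in a library, LIPE had the lowest counts of the 9 genes. LIPE-AS1, a long noncoding RNA on the opposite strand of the same stretch, had 23 to 68 counts. MGLL, ABHD5 and DGAT1 also overlap genes on the opposite strand (SEC61A1, ANO10 and HSF1), and the authors' counting used strand.

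MGLL, on chromosome 3 from 127689062 to 128052190, had smaller differences from untreated cells than LIPE. Its CPM were 127, 133 and 133 untreated, 121, 131 and 132 at 8 h, and 144, 143 and 138 at 24 h. The 24 h libraries stood above all others. MGLL rose by 0.12 (0.03 to 0.20, adjusted p = 0.027) at 24 h, which is 1.08-fold, and by 0.15 (adjusted p = 0.0063) from 8 h to 24 h. The difference at 8 h was -0.03 (-0.12 to 0.05, adjusted p = 0.54). The 24 h call against untreated was lost without untreated replicate 1 (adjusted p = 0.075) and without TEPA 24 h replicate 1 (0.11) or 2 (0.062).

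**Figure D2:**
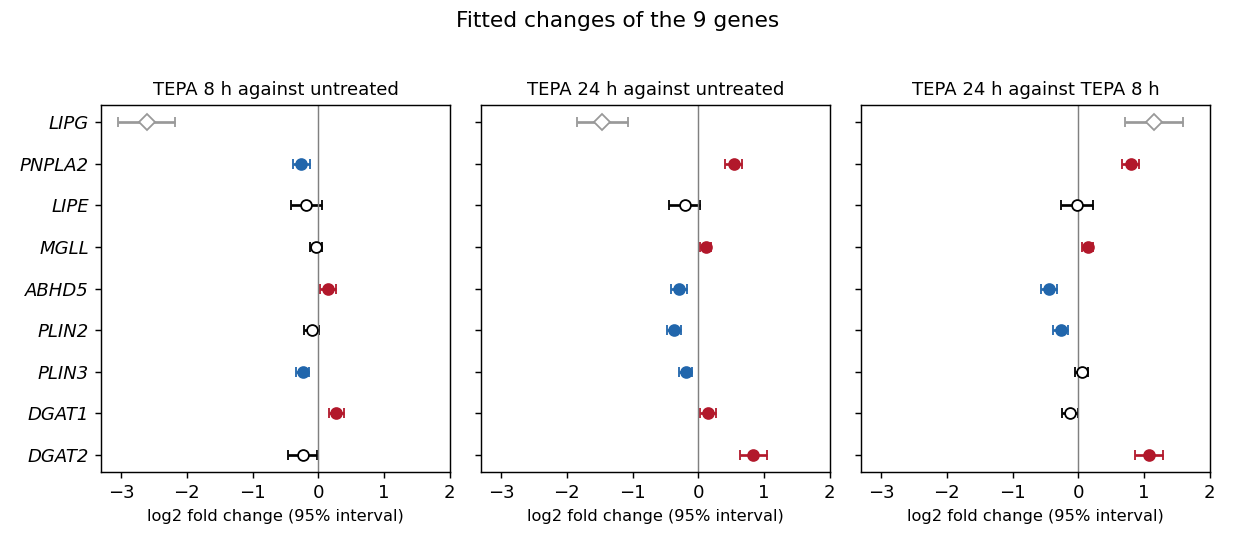
Fitted log2 fold changes of the 9 genes with 95% intervals, 1 panel for each comparison. Red and blue filled points were called higher and lower at an adjusted p under 0.05, open black points were not called, and LIPG is a grey diamond because it was picked on these libraries. PNPLA2 lies on opposite sides of 0 at 8 h and 24 h, DGAT2 reaches 0.83 at 24 h, and all intervals but that of LIPG stay within 0.5 of 0 at 8 h.

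Both droplet coat genes fell, PLIN2 at 24 h and PLIN3 at both times. PLIN2, or adipophilin, coats droplets in most cells and is broken down when it has no droplet to bind. The gene, on chromosome 9 from 19108375 to 19149290, held 58.4, 63.0 and 65.1 CPM untreated, 61.0, 57.3 and 55.9 at 8 h, and 48.0, 50.5 and 46.0 at 24 h. The 24 h libraries were below all others, and the 8 h range overlapped the untreated range. PLIN2 fell at 24 h by 0.37 on the log2 scale (-0.48 to -0.26, adjusted p = 2.3e-05), to 0.775 times the untreated level. At 8 h the difference was -0.10 (-0.21 to 0.01, adjusted p = 0.13), and it passed the test only without untreated replicate 1 (-0.14, adjusted p = 0.026). From 8 h to 24 h it fell by 0.27 (adjusted p = 0.00042).

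PLIN3, a coat protein that also moves freely in the cytosol and covers young droplets, was the most abundant of the 9 per kb of exon. It lies on chromosome 19 from 4838341 to 4867694. Its CPM were 260, 237 and 250 untreated, 201, 216 and 214 at 8 h, and 213, 230 and 210 at 24 h. Both treated groups lay below the untreated libraries and overlapped each other. PLIN3 fell by 0.24 (-0.34 to -0.14, adjusted p = 0.00042) at 8 h and by 0.19 (-0.29 to -0.10, adjusted p = 0.0022) at 24 h. The 2 times differed by 0.05 (-0.05 to 0.15, adjusted p = 0.39). PLIN2 over PLIN3 per kb of exon was between 0.123 and 0.146 untreated, 0.142 and 0.166 at 8 h, and 0.120 and 0.123 at 24 h.

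The 2 enzymes of the last step of triglyceride synthesis are unrelated in sequence. DGAT1, which sits in the endoplasmic reticulum, was called higher at both times, and DGAT2, which can also reach droplets, at 24 h. DGAT1 held 38.4, 35.7 and 37.4 CPM untreated, 43.3, 43.4 and 48.0 at 8 h, and 40.6, 43.9 and 39.2 at 24 h. Every treated library exceeded every untreated one. DGAT1 rose by 0.27 (0.16 to 0.39, adjusted p = 0.00076) at 8 h and by 0.15 (0.03 to 0.27, adjusted p = 0.031) at 24 h. The 24 h call was lost without untreated replicate 2 (adjusted p = 0.12) or 3 (0.068), and without TEPA 24 h replicate 1 (0.058) or 2 (0.15). The difference of 24 h from 8 h was -0.12 with a standard error of 0.06 (adjusted p = 0.074), and it passed only without TEPA 24 h replicate 2 (-0.17, adjusted p = 0.025).

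DGAT2, on chromosome 11 from 75759512 to 75801535, had the largest rise of the 9 genes against untreated cells. It held 13.1, 9.98 and 11.5 CPM untreated, 9.34, 9.46 and 10.4 at 8 h, and 20.6, 22.8 and 17.9 at 24 h. The 24 h libraries stood clear of the rest, while the 8 h range overlapped the untreated range. DGAT2 rose at 24 h by 0.83 (0.63 to 1.04, adjusted p = 3.5e-06), which is 1.78-fold, and was 2.11-fold higher at 24 h than at 8 h (1.08 on the log2 scale, adjusted p = 2.7e-07). At 8 h the difference was -0.24 (-0.46 to -0.02, adjusted p = 0.069). It passed the test without untreated replicate 2 (-0.35, adjusted p = 0.01), without TEPA 24 h replicate 3 (-0.24, adjusted p = 0.046) and with no filter on low counts (-0.25, adjusted p = 0.012).

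The ratio of DGAT2 to DGAT1 per kb of exon separated the 3 groups. It is built from the values given above and was not tested. It was 0.178, 0.146 and 0.161 in untreated libraries. All 8 h libraries lay lower, at 0.113, 0.114 and 0.113, and all 24 h libraries higher, at 0.265, 0.271 and 0.238. DGAT1 remained the more abundant of the pair per length in every library.

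LIPG was picked on these libraries and is left out of the counts that follow. Of the other 8 genes 2 were called higher and 2 lower at 8 h, and 4 were not called. Over all genes tested, 25.2% were called higher and 24.5% lower. At 24 h 4 of the 8 were higher and 3 lower, with LIPE not called, against 25.7% and 26.8% of all genes. From 8 h to 24 h 3 were higher and 2 lower, against 26.0% and 28.8%. Groups did not overlap for 3 of the 8 at 8 h (57.8% of all genes), for 7 at 24 h (57.2%) and for 5 between the 2 times (62.0%). The median log2 fold change of the 8 was -0.14, -0.04 and 0.02 in these comparisons, beside 0.00, 0.00 and -0.02 over all genes tested. The comparisons with untreated cells share the untreated libraries.

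In the order of the 9 genes by level per kb of exon, LIPG moved furthest, which follows from its choice for the fall at 8 h. In untreated cells the means ran from PLIN3 (90.9 CPM per kb) through PNPLA2 (39.8), PLIN2 (12.4), MGLL (11.6), DGAT1 (9.0), LIPG (5.48), ABHD5 (5.37) and DGAT2 (1.46) to LIPE (1.37). Neighbours that overlapped in their libraries were PLIN2 and MGLL, LIPG and ABHD5, and DGAT2 and LIPE. At 8 h LIPG was the lowest at 0.892, below every library of LIPE (mean 1.20). At 24 h it was above LIPE again, at 1.99 against 1.19, and below DGAT2 at 2.58. PLIN3 and PNPLA2 came first and next in every group, at 79.5 and 57.8 CPM per kb at 24 h. Exon lengths are those of GENCODE release 44 with all transcripts joined, and a cell that uses a short transcript would have a higher level than this.

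**Figure D3:**
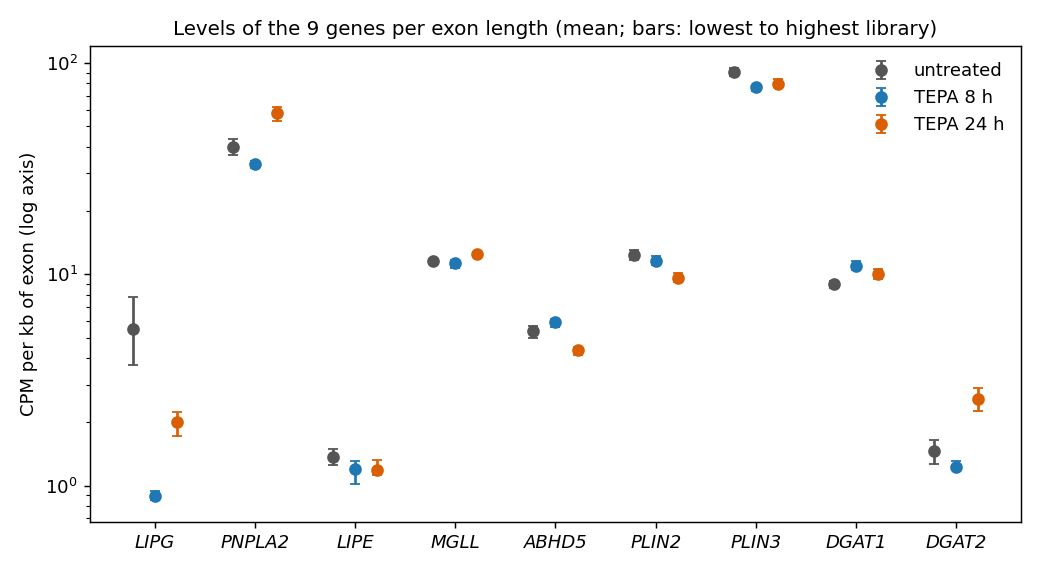
Mean CPM per kb of exon for the 9 genes on a log axis, coloured by group, with bars from the lowest to the highest library. LIPG drops from 5.48 to 0.892 at 8 h, below LIPE, while PLIN3 and PNPLA2 stay above the rest in every group.

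Other genes of lipid release and storage were compared through 7 lists. In the list of extracellular lipases and their regulators, 10 of 20 genes were expressed enough to test, and the close relatives of LIPG were not among them. LPL, the lipoprotein lipase, had 0 counts in every library, and LIPC, the hepatic lipase, at most 1 count. At 8 h 2 of the 10 were higher and 5 lower (median -0.15), where 25.2% and 24.5% of all genes were. At 24 h 3 were higher and 3 lower (median -0.05), where 25.7% and 26.8% of all genes were. LIPH, a phospholipase that makes lysophosphatidic acid, fell from 15.6, 12.3 and 12.7 CPM to 8.05, 8.31 and 7.53 at 8 h (-0.76, adjusted p = 4.2e-06). At 24 h it was at 15.3, 15.7 and 15.8 CPM (0.20, adjusted p = 0.049). The LIPH call at 24 h was lost on leaving out any 1 library other than untreated replicate 1, with adjusted p-values from 0.059 (without TEPA 8 h replicate 3) to 0.21 (without untreated replicate 2).

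Of the tested genes whose proteins act on endothelial lipase or its relatives, ANGPTL4 had the largest log2 fold change at 24 h and PCSK5 at 8 h. ANGPTL4, a secreted inhibitor of lipoprotein lipase, fell from 7.01, 8.12 and 9.0 CPM to 6.45, 5.07 and 5.22 at 8 h (-0.53, adjusted p = 0.0028) and to 4.23, 3.15 and 3.31 at 24 h (-1.16, adjusted p = 2.5e-06). FURIN, a proprotein convertase, rose at 8 h by 0.21 (adjusted p = 0.00044) and was at -0.01 at 24 h (adjusted p = 0.80). PCSK5, another convertase that was named after its values were seen, fell by 0.60 at 8 h (adjusted p = 0.0006) and by 0.43 at 24 h (adjusted p = 0.0053). PCSK6 was not called, at -0.15 and -0.51 (adjusted p = 0.60 and 0.074). LMF1, which the lipases need to fold in the endoplasmic reticulum, fell at 8 h by 0.33 (adjusted p = 0.014), a call lost without untreated replicate 1 (-0.22, adjusted p = 0.069). At 24 h LMF1 was at -0.10 (adjusted p = 0.45). LMF2 and SEL1L of the same list, both named after their values were seen, did not follow LMF1. LMF2 rose at 8 h by 0.29 (adjusted p = 0.00013) and was at 0.09 at 24 h (adjusted p = 0.12). SEL1L was at -0.09 at 8 h (adjusted p = 0.15) and rose at 24 h by 0.17 (adjusted p = 0.0091).

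Among intracellular lipid release genes other than the members, 15 of 17 were tested. At 8 h 4 rose and 4 fell (median 0.05, with 25.2% and 24.5% over all genes), and at 24 h 6 rose and 6 fell (median -0.06, with 25.7% and 26.8%). G0S2 and HILPDA, small inhibitors of PNPLA2, were both lower at 24 h, when PNPLA2 was higher. G0S2 fell by 0.46 (adjusted p = 0.010), which was lost without untreated replicate 2 (-0.28, adjusted p = 0.071), and its untreated replicate 1 (9.81 CPM) overlapped the 24 h range of 9.75 to 10.6. HILPDA fell by 0.42 (adjusted p = 0.0011). At 8 h they were at 0.05 and 0.07 (adjusted p = 0.78 and 0.55). PNPLA3, a relative of PNPLA2 found on droplets, fell at both times by 0.57 (adjusted p = 7.2e-06) and 0.79 (adjusted p = 1.7e-07). ABHD6, another monoglyceride lipase, fell by 0.28 (adjusted p = 0.0011) and 0.25 (adjusted p = 0.0021). PNPLA7, a lysophospholipase, rose at 24 h from between 1.14 and 1.36 CPM to between 2.33 and 2.94 (1.08, adjusted p = 5.6e-05).

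Droplet coat and assembly genes included the largest fall of the lists. Of 21 genes 14 were tested, with 2 higher and 6 lower at 8 h (median -0.05, with 25.2% and 24.5% over all genes). At 24 h 4 were higher and 2 lower (median 0.03, with 25.7% and 26.8%). From 8 h to 24 h 8 of the 14 were higher and 1 lower (26.0% and 28.8%). Lipid transcription factors had 8 of 16 higher and 2 lower in that comparison, and fatty acid oxidation genes 9 of 17 and 5. Counts were 3 of 10 and 4 for extracellular lipases and regulators, and 6 of 15 and 6 for intracellular release. They were 5 of 14 and 6 for synthesis, and 3 of 9 and 6 for uptake and activation. PLIN4, a perilipin with a long repeated helix, had 105, 101 and 105 counts untreated, 13, 8 and 1 at 8 h, and 71, 59 and 40 at 24 h. No group overlapped another. PLIN4 fell by 3.72 on the log2 scale at 8 h (adjusted p = 2.9e-07) and by 0.97 at 24 h (adjusted p = 0.0024). PLIN1, the perilipin of fat cells, was at under 1.1 CPM in every library and rose at 24 h by 1.08 (adjusted p = 0.0052), and PLIN5 had at most 1 count. METTL7A, a droplet-associated methyltransferase, fell at 8 h by 1.12 (adjusted p = 0.0027) and rose at 24 h by 0.89 (adjusted p = 0.0031).

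In triglyceride and sterol ester synthesis 14 of 18 genes were tested, and 3 rose and 3 fell at 8 h (median 0.03, with 25.2% and 24.5% over all genes), then 4 rose and 6 fell at 24 h (median -0.06, with 25.7% and 26.8%). GPAM, which starts glycerolipid synthesis at mitochondria, rose from 15.1, 20.0 and 19.9 CPM to 36.9, 34.0 and 34.5 at 8 h (0.93, adjusted p = 2.4e-07). It stood at 24.9, 25.6 and 26.0 CPM at 24 h (0.47, adjusted p = 0.00017). Its relative GPAT2 instead fell at 24 h by 1.07 (adjusted p = 9.2e-09) and was at 0.02 at 8 h (adjusted p = 0.84). SOAT1, which esterifies cholesterol for storage, fell at 24 h by 0.16 (adjusted p = 0.0052). MOGAT2, of the monoacylglycerol route to triglyceride, had at most 3 counts.

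Fatty acid uptake and activation genes were lower at 24 h in 7 of the 9 tested and higher in 0 (median -0.26), where 26.8% and 25.7% of all genes were. At 8 h 4 were lower and 2 higher (24.5% and 25.2% over all genes). ACSL3, which activates fatty acids on young droplets, fell from 343, 298 and 325 CPM to 161, 149 and 148 at 8 h (-1.08, adjusted p = 1.1e-09), and was at 217, 212 and 235 CPM at 24 h (-0.54, adjusted p = 5.4e-07). MFSD2A, a lysophospholipid transporter, fell by 0.40 (adjusted p = 0.00025) and 1.19 (adjusted p = 4.4e-09). Fatty acid oxidation genes were called in both directions, with 5 of 17 higher and 7 lower at 8 h (25.2% and 24.5%) and 6 higher and 7 lower at 24 h (25.7% and 26.8%). ETFDH, which passes electrons from fatty acid oxidation to the respiratory chain, rose by 0.40 (adjusted p = 3.1e-05) and 1.09 (adjusted p = 4.5e-10). CPT1B and ACADL were of low abundance, with at most 71 and 32 counts in a library. CPT1B rose at 8 h by 1.60 (adjusted p = 2.7e-05), and ACADL fell at 24 h by 1.45 (adjusted p = 0.00097). The more abundant CPT1A, named after its values were seen, had 78.8 CPM untreated. It rose at 8 h by 0.34 (adjusted p = 5e-06) and fell at 24 h by 0.46 (adjusted p = 1.7e-07).

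**Figure D4:**
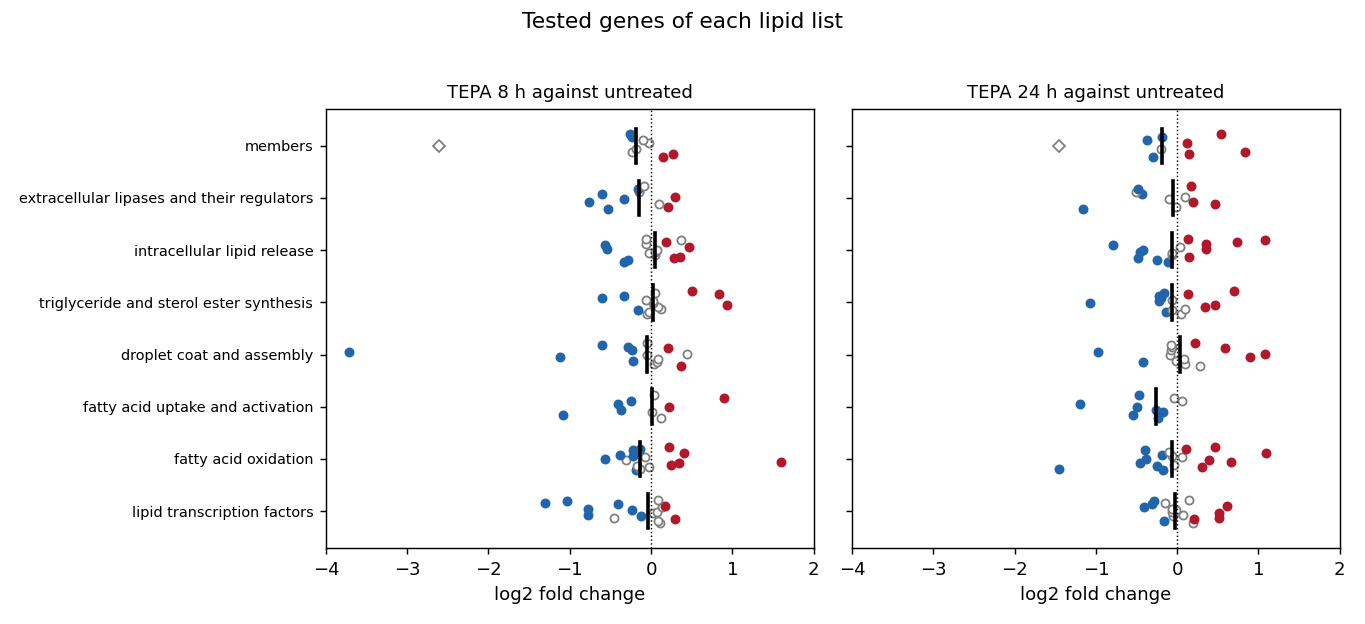
Fitted log2 fold changes of the tested genes in each lipid list at 8 h (left) and 24 h (right). Red and blue points were called higher and lower, open grey points were not called, the grey diamond is LIPG, thick black bars are list medians (that of the members includes LIPG) and the dotted line is the median of all genes tested. List medians lie between -0.26 and 0.05, and LIPG and PLIN4 lie far to the left at 8 h.

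Of 16 lipid transcription factors 2 were higher and 7 lower at 8 h (median -0.04, with 25.2% and 24.5% over all genes), and 4 were higher and 4 lower at 24 h (median -0.03, with 25.7% and 26.8%). SREBF1, the main activator of fatty acid synthesis genes, fell from 567, 420 and 480 CPM to 175, 213 and 206 at 8 h (-1.30, adjusted p = 2.1e-08). At 24 h it was at 428, 472 and 421 CPM (-0.15, adjusted p = 0.16), and it passed the test there without untreated replicate 2 (-0.25, adjusted p = 0.011) and with no filter on low counts (adjusted p = 0.00072). SREBF2, the activator of cholesterol synthesis genes, fell from 238, 165 and 187 CPM to 88.4, 102 and 97.5 (-1.03, adjusted p = 3.8e-07). At 24 h it was lower by 0.29 (adjusted p = 0.016). The SREBF2 call at 24 h was lost without untreated replicate 1 (-0.13, adjusted p = 0.064), without TEPA 24 h replicate 1 (-0.27, adjusted p = 0.057) and by DESeq2 (adjusted p = 0.087).

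The genes most like LIPG were found by Pearson correlation of log2 CPM over the 9 libraries, among 13218 genes with a mean of at least 1 CPM. They were HMGB3 (r = 0.998), a chromatin protein, MARCKSL1 (0.998), an actin regulator, the noncoding RNA LINC00261 (0.996), LSS (0.995), the lanosterol synthase of cholesterol synthesis, and PDIA4 (0.995), a protein disulfide isomerase. These values are a description, since the points fall into 3 groups and 671 genes reached an r of 0.9. By Spearman's rank correlation 29 genes tied at 1, and 0 of the 5 named genes were among the leading 5. In LIPG and in each of the 5, untreated replicate 1 was the highest library and replicate 2 the lowest untreated one. The sizes of the falls differed, with MARCKSL1 at -1.76 and PDIA4 at -0.44 at 8 h beside -2.61 for LIPG.

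Other members of the lipid set followed LIPG to very different degrees. Pearson's r with LIPG was 0.911 for PLIN3, 0.551 for LIPE, 0.289 for PNPLA2, 0.244 for PLIN2, 0.194 for DGAT2, 0.076 for MGLL, -0.319 for ABHD5 and -0.78 for DGAT1. It was 0.946 for SREBF2, 0.882 for SREBF1 and 0.912 for PLIN4. LPIN1, a phosphatidate phosphatase of triglyceride synthesis that was named after its values were seen, had an r of 0.964 and fell by 0.60 at 8 h (adjusted p = 3.2e-07) and by 0.20 at 24 h (adjusted p = 0.0046). Relatives of LPIN1, also named after their values were seen, went both ways at 8 h. LPIN2 fell by 0.33 (adjusted p = 2.3e-05), whereas LPIN3 rose by 0.84 (adjusted p = 4.5e-09). At 24 h LPIN2 was at -0.23 (adjusted p = 0.00042) and LPIN3 at 0.13 (adjusted p = 0.039). All correlations given here are over the same 9 libraries.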

How the data were processed

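RNA-Seq libraries of MDA-MB-231 cells (TruSeq stranded mRNA, paired-end) were analysed from the deposited raw counts. Per the labels and the study's methods, the authors used FastQC for read quality, HISAT2 for alignment to hg38 and featureCounts for strand-specific counts of read pairs over the exons of each gene name in Ensembl release 103. Versions of these tools are not given in the sources used here. The deposited counts carry no normalization, and every column of the table was used. Counting error is the least error of a value.

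The main test was run in edgeR 4.0.16 (R 4.3.3), after its filterByExpr step at a minimum count of 10 and TMM scaling of the library sizes. All 9 libraries entered one quasi-likelihood fit over 16556 genes, which hold 99.95% of counts. Benjamini-Hochberg adjustment ran over these genes, and a gene was called at an adjusted p under 0.05. The biological coefficient of variation was 0.0481. The 3 libraries against 3 cannot give an exact permutation p under 0.1, so none was used. On simulated counts of 15963 genes for the 8 h comparison, 189 of 200 changed genes were called in the right direction and 2 unchanged genes were called. These changes were set at sizes above most of those fitted for the members, in few genes and with no outlying library. The rate therefore does not carry over to the calls of the members. Exon lengths and positions are from GENCODE release 44 and upstream sequences from RefSeq GRCh38.p14. The study's own test was DESeq2, used here at version 1.42.0 as an alternative, with other scaling factors, filters and fits and with each library left out.

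The genes and lists were chosen with earlier results of these data known. Some listed genes, such as PCSK5 and LPIN1, were named only after their values were seen. Named were the 9 members, direct regulators and relatives of LIPG, PNPLA2, the perilipins and DGAT enzymes, listed genes called with a log2 fold change beyond 1 in any comparison, and the 5 genes most like LIPG.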

Additional observations from a re-analysis of the deposited data

Results flagged for a closer look

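For 5 of the 8 genes other than LIPG, the effect of TEPA at 24 h differed from that at 8 h in the direct comparison of the 2 times by edgeR's quasi-likelihood test. In that comparison 54.8% of all genes tested were called, and groups did not overlap for 62.0%. The log2 difference of 24 h from 8 h was 0.80 for PNPLA2 (adjusted p = 3.5e-08) and 1.08 for DGAT2 (adjusted p = 2.7e-07), where all 24 h libraries were above all 8 h libraries. It was 0.15 for MGLL (adjusted p = 0.0063), also with no overlap. It was -0.44 for ABHD5 (adjusted p = 9.3e-06) and -0.27 for PLIN2 (adjusted p = 0.00042), where all 24 h libraries were below all 8 h libraries. PNPLA2 and ABHD5 were called in opposite directions at the 2 times, and the ABHD5 call at 8 h (adjusted p = 0.045) was lost under 9 of 16 alternatives. A single untreated group served both times, so growth of untreated cells from 8 h to 24 h cannot be told apart from treatment time.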

How the results depend on the processing

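No member reversed its direction under an alternative where it was called in the main fit or in that alternative. Changes of sign in a gene called in neither were not counted. Of 128 values for the 8 tested members, 115 kept their side of the threshold at 8 h, 120 at 24 h and 127 from 8 h to 24 h. The log2 fold change of LIPG ran from -2.84 to -2.27 at 8 h, from -1.68 to -1.12 at 24 h and from 1.07 to 1.25 from 8 h to 24 h. A log2 fold change beyond 0.5 as a further condition cut the genes called from 8216 to 2943 at 8 h, from 8688 to 3095 at 24 h and from 9079 to 3505 between the times, and the tested members called from 4 to 0, from 7 to 2 and from 5 to 2. Same-numbered libraries correlated between -0.0801 and 0.0383 in their deviations, and not every library correlated best with its own number. No deviation shared by number was seen, which cannot tell whether same-numbered libraries were handled together. The replicate block called 7779, 8355 and 8758 genes, and with it ABHD5 at 8 h (0.14, adjusted p = 0.07), DGAT1 at 24 h (0.15, adjusted p = 0.054) and LIPH at 24 h (0.20, adjusted p = 0.061) were not called. The cause of these changes was not tested. The CPT1B call at 24 h (0.66, adjusted p = 0.031), the PNPLA3 call from 8 h to 24 h (-0.22, adjusted p = 0.017) and the LIPH call at 24 h were each lost under several alternatives.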
